A study of Mus musculus with 6 samples.

Results

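Fdps and Idi1, a pair of genes encoding neighbouring enzymes of cholesterol synthesis, were followed in the livers of mice given GW4064 or vehicle. GW4064 is a synthetic compound that activates the bile acid receptor FXR (farnesoid X receptor). Members were all probe sets whose gene symbol in the authors' deposited table is exactly Fdps or Idi1. This gave 1 probe set for each, 2 of the 22626 probe sets tested and 2 of the 87 genes that the table names. RNA was measured on 6 Affymetrix arrays, 1 for each of 3 mice per group. All mice were adult wild type C57BL/6J. The treated group received GW4064 at 100 mg per kg body weight and the control group received vehicle, each in 3 doses (8 am, 6 pm and again 8 am the next morning). Livers were collected 2 hours later. Both groups went without food overnight from the second dose on, as the study's methods state. The mice's sex, their age in weeks and the make-up of the vehicle are not given in the sources used. The table lists probe sets that its authors selected as altered on these same arrays, so the presence of both genes in it is no independent evidence of a response.

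Cholesterol is built from acetyl-CoA by way of mevalonate and the isoprenoid units that it yields. Isopentenyl-diphosphate delta isomerase, the product of Idi1, interconverts isopentenyl diphosphate and dimethylallyl diphosphate, and farnesyl diphosphate synthase, the product of Fdps, joins these units into farnesyl diphosphate. From there the path leads to squalene and the sterols, or branches to geranylgeranyl diphosphate, dolichol, ubiquinone and prenylated proteins. In liver the genes of the pathway are known to be induced together by the transcription factor SREBP2 when cell sterols are low, and bile acids are made from the cholesterol that the pathway supplies.

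The promoter of Idi1 is shown as background, because genes of this pathway are known to share short promoter elements. Whether Idi1 and Fdps share such elements was not examined. Of the 2 genes, 1 was matched to a RefSeq promoter sequence, that of Idi1 at chr13:8885356-8885655 of GRCm38.p6 on the plus strand. It runs from 250 bases before the transcription start to 50 bases after it. Capitals mark the pentamer ATTGG, the inverted CCAAT box that the factor NF-Y binds.

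Idi1 promoter: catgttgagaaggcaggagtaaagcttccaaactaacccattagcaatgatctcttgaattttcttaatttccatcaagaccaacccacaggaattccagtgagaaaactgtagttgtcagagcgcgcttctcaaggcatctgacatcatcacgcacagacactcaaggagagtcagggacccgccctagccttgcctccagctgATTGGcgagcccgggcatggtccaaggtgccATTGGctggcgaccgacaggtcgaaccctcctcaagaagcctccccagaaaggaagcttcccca

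ATTGG occurred 2 times, at -45 to -41 and at -14 to -10 counted from the first transcribed base as 0. The GC box GGGCGG, known as a site of Sp1, occurred 1 time, on the minus strand at -69 to -64, and the E-box CANNTG occurred 2 times, at -113 to -108 and at -51 to -46. These sites did not overlap each other. The sterol element TCACNCCAC and the nuclear receptor hexamer AGGTCA were not in this window on either strand. Of all 32851 windows of this length, 37.4% held ATTGG on at least 1 strand, 35.7% held GGGCGG, 72.3% held CANNTG, 1.24% held TCACNCCAC and 16.3% held AGGTCA. Of the 20 genes listed for cholesterol synthesis, 15 had a window, and 14 of the 15 held ATTGG and 14 held GGGCGG in any of their windows, against 41.1% and 38.2% of all genes. Counted in the same way, 11 of the 15 held CANNTG, 1 held TCACNCCAC and 2 held AGGTCA, against 75.0%, 1.44% and 18.1% of all genes. A match of letters is a description and not a measured site.

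Both genes were lower in the livers of GW4064-treated mice, but neither passed the adjusted threshold. Fdps lay 1.90-fold lower and Idi1 1.69-fold lower, and in each the treated mice were all below the vehicle mice. Fdps (farnesyl diphosphate synthetase in the authors' table, probe set 1423418_at, chromosome 3 band F1) had log2 levels of 12.03, 11.81 and 12.24 in vehicle replicates 1, 2 and 3 and of 10.89, 10.74 and 11.68 in GW4064 replicates 1, 2 and 3. GW4064 replicates 1 and 2 were thus far below all other mice, while replicate 3 lay 0.13 below the lowest vehicle mouse. The means were 12.03 ± 0.21 in vehicle and 11.10 ± 0.51 in GW4064 livers (SD, n = 3 each), a difference of -0.93 (SE 0.23, 95% interval -1.46 to -0.39) or 1.31-fold to 2.76-fold lower. By limma the unadjusted p was 0.0041 and the adjusted p over all probe sets was 0.484.

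Idi1 (probe set 1451122_at, chromosome 13 band A1) had log2 levels of 11.12, 10.73 and 11.08 in vehicle replicates 1, 2 and 3 and of 10.13, 9.87 and 10.66 in GW4064 replicates 1, 2 and 3. Again GW4064 replicates 1 and 2 stood well below the rest, and replicate 3 lay 0.07 below the lowest vehicle mouse. The means were 10.98 ± 0.22 in vehicle and 10.22 ± 0.41 in GW4064 livers (SD, n = 3 each), a difference of -0.76 (SE 0.20, 95% interval -1.22 to -0.30) or 1.23-fold to 2.33-fold lower. By limma the unadjusted p was 0.0051 and the adjusted p was 0.487. In whole liver, fewer cells of a type and less RNA per cell cannot be told apart.

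**Figure D1:**
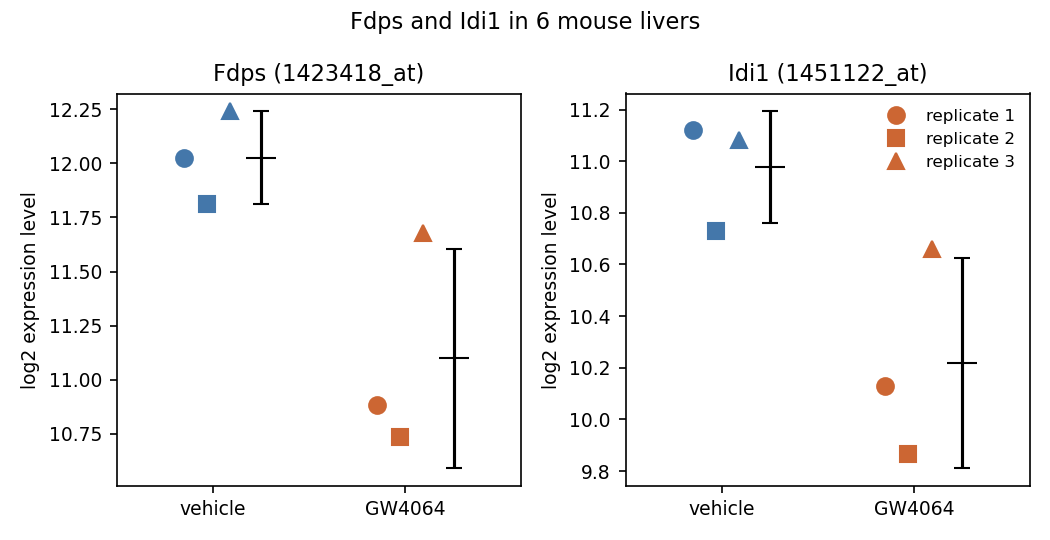
Log2 expression level of Fdps (left) and Idi1 (right) in each of 6 livers, with vehicle mice in blue, GW4064 mice in orange, marker shape for the replicate number and black bars for the group mean ± SD (n = 3); the vertical axes do not start at 0. In both genes the GW4064 mice lie below the vehicle mice, replicate 2 is the lowest and replicate 3 is close to the vehicle mice.

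Against the whole array, both probe sets met the looser threshold of 1.5-fold and unadjusted p under 0.05 in the lower direction, where 140 of 22626 probe sets or 0.619% did, and both were lower with no overlap between the groups, where 7.16% were. Nothing can be read from these shares for genes that the authors' table had selected on the same contrast. By limma 0 probe sets of all genes, or 0%, had an adjusted p under 0.05, while 1985 (8.77%) had an unadjusted p under 0.05. The methods' t-test gave 1427 and, after Benjamini-Hochberg adjustment, again 0. A difference as low as that of Fdps was seen in 65 probe sets, itself included, and 1 as low as that of Idi1 in 115. The exact permutation test of 3 against 3 mice gave a two-sided p of 0.1 for each gene, the smallest it can give.

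Within the treated group the fall was uneven, and the same mouse showed the largest fall in both genes. On the linear scale, and relative to the level that is the mean of the vehicle mice's log2 values, Fdps stood at 45.4% in GW4064 replicate 1, 40.9% in replicate 2 and 78.6% in replicate 3. Idi1 stood at 55.5%, 46.3% and 80.3% in the same mice. GW4064 replicate 2 was therefore lowest in both, at deviations of -1.29 for Fdps and -1.11 for Idi1, replicate 1 followed at -1.14 and -0.85, and replicate 3 was highest at -0.35 and -0.32. Replicates 1 and 2 lay 0.15 apart for Fdps and 0.26 apart for Idi1, less than the vehicle range of 0.43 and 0.39, so that the order of these mice is not separated from the spread between untreated livers. Replicate 3 lay 0.79 and 0.53 above replicate 1, more than that range. The SD of the treated mice was 2.36 times that of the vehicle mice for Fdps and 1.88 times for Idi1. Over all probe sets the median SD was 0.114 in GW4064 and 0.111 in vehicle livers. A ratio of SDs from 3 mice per group is imprecise, and how many single probe sets had ratios as large was not counted.

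Whether Fdps passed the adjusted threshold depended on GW4064 replicate 3. Without this mouse Fdps differed by -1.21 (SE 0.14), 2.32-fold lower, with a limma adjusted p of 0.0211, and Idi1 differed by -0.98 (SE 0.15), 1.97-fold lower, with an adjusted p of 0.0605. In that comparison 70 probe sets in all had an adjusted p under 0.05. Without GW4064 replicate 2 the differences were the smallest of any omission, at -0.74 (SE 0.24) for Fdps and -0.58 (SE 0.19) for Idi1. Leaving out any other single mouse gave -0.82 to -1.03 for Fdps and -0.69 to -0.88 for Idi1, and neither gene then passed.

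**Figure D2:**
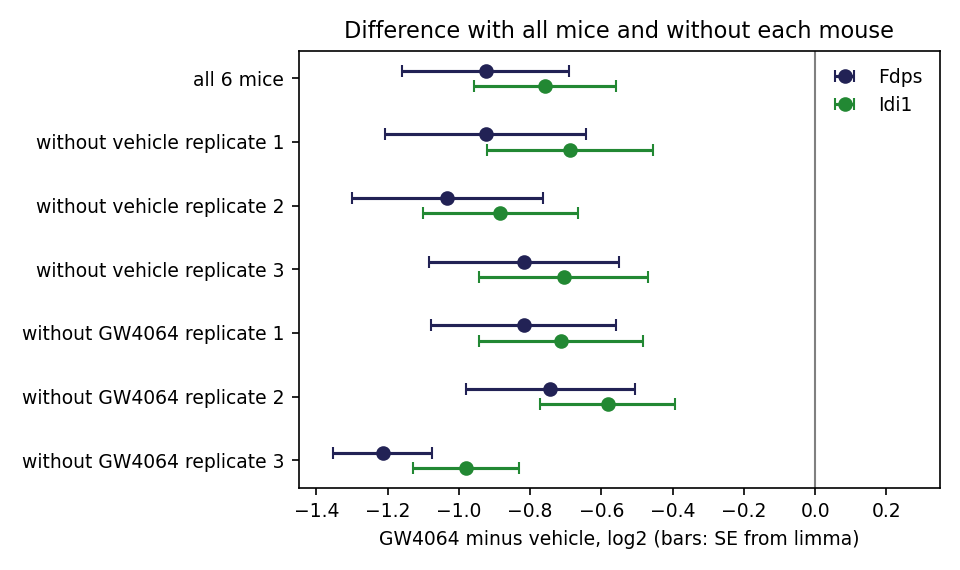
Difference in log2 level, GW4064 minus vehicle, of Fdps and Idi1 with all 6 mice and without each mouse in turn, with bars for the SE from limma. The values lie between -1.21 and -0.74 for Fdps and between -0.98 and -0.58 for Idi1, and are lowest without GW4064 replicate 3.

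Within each group the same mouse was lowest in both genes, which is a description of 3 mice per group without a test. Among vehicle mice, replicate 2 was the lowest in both genes, at -0.22 for Fdps and -0.25 for Idi1 from the vehicle mean, while replicates 1 and 3 changed places (0.00 and 0.21 for Fdps, 0.14 and 0.11 for Idi1). Over the 6 mice the order from highest to lowest level was thus the same apart from vehicle replicates 1 and 3. Since the groups did not overlap and hold 3 mice each, no correlation is given. As a measure of likeness, the root mean square difference between the 6 deviations of Fdps and those of Idi1 was 0.16 on the log2 scale, against a median of 0.73 between Fdps and all other probe sets. Of the 22625 other probe sets on the arrays Idi1 was number 2 in likeness to Fdps, and Fdps was number 3 in likeness to Idi1. These deviations hold the fall after GW4064, and the authors' table had selected both genes as altered on this contrast. A small difference and close ranks were thus favoured in advance. With deviations taken from the mean of each mouse's own group, which removes the shared difference between the groups, Idi1 was number 8 in likeness to Fdps, Fdps was number 17 in likeness to Idi1 and the root mean square difference was 0.11 against a median of 0.33. The rank by deviations from the vehicle mean, where Idi1 was number 2 with all 6 mice, depended on single mice. By that measure Idi1 was number 28 without GW4064 replicate 2 and number 6 without vehicle replicate 1. The ranks by deviations from the group means were not rerun without a mouse.

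**Figure D3:**
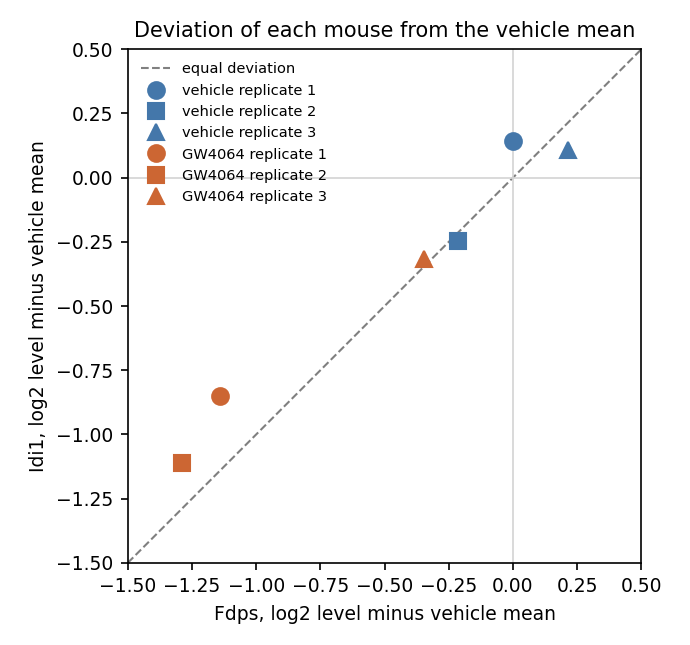
Deviation of each mouse's log2 level from the vehicle mean, Fdps on the horizontal and Idi1 on the vertical axis, with vehicle mice in blue, GW4064 mice in orange and the dashed line where both are equal. The 6 mice run along the line, from GW4064 replicate 2 at -1.29 and -1.11 up to the vehicle mice, with GW4064 replicate 3 next to vehicle replicate 2.

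The fall of Fdps was slightly larger than that of Idi1 in 3 of 3 treated mice, by 0.29, 0.18 and 0.03 in GW4064 replicates 1, 2 and 3. The same gap between the deviations was -0.14, 0.03 and 0.11 in vehicle replicates 1, 2 and 3, so that the groups overlapped. The falls differed by -0.17 (Fdps minus Idi1), and the differences over the 9 pairs of a treated and a vehicle mouse ran from -0.40 to 0.11. The exact permutation test gave a two-sided p of 0.2, where 0.1 is the smallest that it allows. Unequal falls were not detectable with 3 mice per group, which does not show that the falls were equal.

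The lowest treated mouse of Fdps and Idi1 was not that of most probe sets that were lower after GW4064. This is a description without a test, and replicate 2 lay below replicate 1 by only 0.15 and 0.26, within the vehicle range. Of the 140 probe sets that were lower at 1.5-fold and unadjusted p under 0.05, GW4064 replicate 1 was the lowest in 119 (85.0%), replicate 2 in 12 (8.57%) and replicate 3 in 9 (6.43%). Fdps and Idi1 are among the 12. This threshold was applied to the same treated values, so the make-up of the set depends on each mouse. It was met in the lower direction by 68 probe sets without GW4064 replicate 1, 155 without replicate 2 and 326 without replicate 3. Of the 1620 lower with no overlap, which hold both genes too, replicate 1 was the lowest in 53.2%, replicate 2 in 26.4% and replicate 3 in 20.4%. The full order of replicate 2 lowest, then 1, then 3 was found in 6.43% of the 140, 16.5% of the 1620 and 14.4% of all probe sets. That order with vehicle replicate 2 as the lowest vehicle mouse, as in both genes, was found in 5.0%, 5.68% and 5.26%, so it was about as frequent among the lower probe sets as on the whole array. Over all 22626 probe sets each treated mouse was lowest about equally often (34.1%, 32.7% and 33.3% for replicates 1, 2 and 3). GW4064 replicate 1 was also farthest from vehicle over the whole array, with a median absolute deviation from the vehicle mean of 0.137 against 0.105 for replicate 2 and 0.0965 for replicate 3. Its limma array weight, which is lower for an array that varies more about its group, was the lowest of the treated mice. It was 0.592 against 1.80 for replicate 2 and 0.896 for replicate 3. The part of response and of noise in this larger deviation was not tested.

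**Figure D4:**
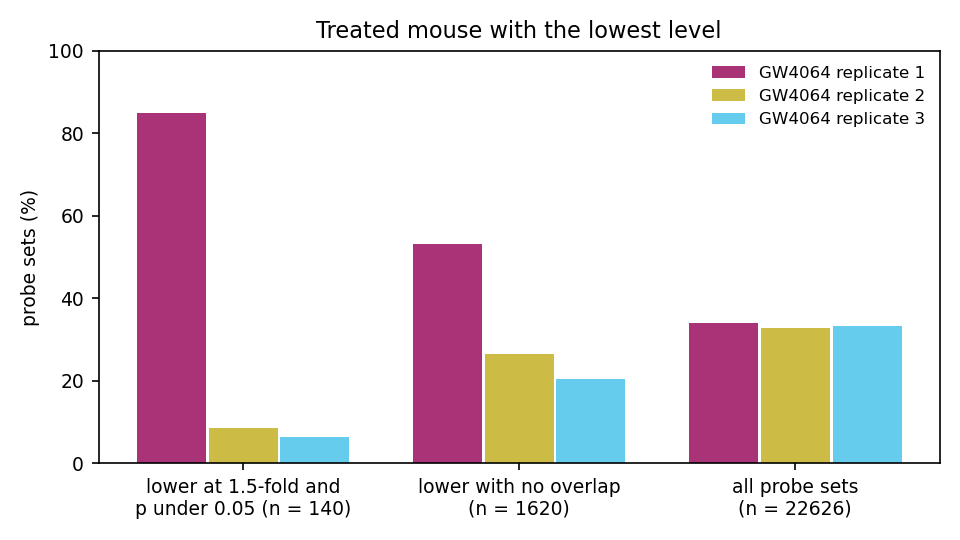
Share of probe sets (%) in which each GW4064 mouse had the lowest level of the treated mice, for the 140 probe sets lower at 1.5-fold and unadjusted p under 0.05, the 1620 lower with no overlap between the groups, and all 22626. Replicate 1 was lowest in 85.0% of the 140, and 53.2% of the 1620, and replicate 2, the lowest for Fdps and Idi1, in 8.57% and 26.4%. The 140 and the 1620 were chosen on these same values.

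Of the rest of the pathway little could be named. Of 20 genes listed for cholesterol synthesis, 8 up to farnesyl diphosphate and 12 from squalene synthesis on, only Fdps and Idi1 had a probe set paired with them. Both were lower by the looser threshold, met in that direction by 0.619% of the array, and 0 passed the adjusted threshold. Their median difference was -0.84, against -0.00339 over all probe sets. These are the 2 genes already described, and the authors' table had selected them on the same contrast. Nothing can thus be read from this count or median about the pathway. Lists of other branches from farnesyl diphosphate (11 genes), of the SREBP2 system and sterol uptake (12), of cholesterol export, storage and LXR targets (10) and of SREBP1 fatty acid synthesis (12) had 0 paired genes and are not analysed here. The 7 lists of cell type markers (45 genes), hepatocyte markers included, also had 0 paired genes, so neither the labelled tissue nor the presence of other cells was checked with defining markers.

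Of 12 genes listed for bile acid synthesis, which uses the cholesterol made, 3 had a paired probe set, and their treated mice stood in another order. Cyp8b1, which encodes the sterol 12-alpha-hydroxylase of cholic acid synthesis and is known to be expressed in liver, lay -3.76, -2.08 and -1.42 from the vehicle mean in GW4064 replicates 1, 2 and 3, a difference of -2.42 (SE 0.51). Csad, whose enzyme acts in the synthesis of taurine for bile acid conjugation, lay at -3.34, -2.92 and -1.99, and the sterol carrier gene Scp2 at -0.86, -0.60 and -0.51. These genes thus had their largest fall in replicate 1 and, like Fdps and Idi1, the smallest in replicate 3. All 3 were lower by the looser threshold, met by 0.619% of the array, and 0 by the adjusted one. The authors' table had selected them on the same contrast, so nothing can be read from that count. Nr0b2, the FXR target that encodes the corepressor SHP, exceeded the vehicle mean by 2.81, 1.44 and 1.11, again farthest in replicate 1. It was the 1 of 10 genes in the list of FXR and its targets with a paired probe set. Its difference was 1.79 (SE 0.39) with a limma adjusted p of 0.433, so it did not pass the adjusted threshold. The authors' table had selected Nr0b2 on this contrast too.

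The inflammatory genes Cxcl1 and Lcn2 also had uneven levels among the treated mice. Both were picked for their order over the treated mice after their values were seen, so that order is no separate result. How many probe sets on the array had the reverse order was not counted. Cxcl1, a neutrophil-attracting chemokine, exceeded the mean of the vehicle mice by 3.96, 4.35 and 0.90 in replicates 1, 2 and 3 of the treated group, the reverse of the order of Fdps and Idi1. Lcn2, an acute phase gene, exceeded it by 7.80, 7.09 and 2.18, farthest in replicate 1 and so not in that reverse order. By limma the adjusted p was 0.484 for Cxcl1 and 0.436 for Lcn2, so neither passed the adjusted threshold. The part of these inflammatory differences in the levels of Fdps and Idi1 was not tested.

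Among the other named genes, those most like Fdps and Idi1 over the 6 mice were Lama3, Pgd, Elk3, Eif1ax and Epb41l2, with root mean square differences of 0.22, 0.23, 0.24, 0.24 and 0.25 from the mean of both genes' deviations. Pgd, which encodes the phosphogluconate dehydrogenase of the pentose phosphate pathway, lay -0.76, -0.71 and -0.24 from the vehicle mean in GW4064 replicates 1, 2 and 3. Eif1ax, a translation initiation factor gene given as Eif1ay in the authors' table, lay at -0.70, -0.73 and -0.19 and shared replicate 2 as its lowest mouse. Lama3, a laminin chain gene, lay at -1.16, -1.09 and -0.69, the transcription factor gene Elk3 at -1.10, -0.69 and -0.30, and Epb41l2, which encodes a membrane skeleton protein, at -0.96, -0.74 and -0.41. Replicate 1 was thus the lowest mouse in 4 of the 5 genes, while replicate 3 was nearest to vehicle in all 5. The 5 were picked from the authors' table of altered genes for likeness to a profile with replicate 3 nearest to vehicle. The place of replicate 3 therefore largely follows from that choice and is no separate result. By limma none of the 5 passed the adjusted threshold, with adjusted p-values between 0.417 and 0.528. The probe sets of Pgd and Epb41l2 have suffixes that mark possible detection of other transcripts, and Lama3 and Elk3 were dim, with mean levels of 5.39 and 4.98 against a median of 5.88 over all probe sets.

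Nearer than any of these genes lay 7 probe sets to which the files give no gene name. The nearest was 1433446_at, with a root mean square difference of 0.10. It had log2 levels of 10.72, 10.56 and 10.79 in vehicle and 9.81, 9.62 and 10.48 in GW4064 replicates 1, 2 and 3, a difference of -0.72 (SE 0.20). The next was 1420013_s_at, with a root mean square difference of 0.11, whose levels were 8.87, 8.55 and 9.10 in vehicle and 8.02, 7.76 and 8.62 in GW4064 replicates 1, 2 and 3, a difference of -0.71 (SE 0.22). In both of them vehicle replicate 2 was the lowest vehicle mouse and GW4064 replicate 2 the lowest of all, as in Fdps and Idi1. Both were picked by that likeness, so the shared order largely follows from the choice. GW4064 replicate 2 was the lowest treated mouse in 4 of the 7. By limma the adjusted p was 0.498 for 1433446_at and 0.532 for 1420013_s_at.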

How the data were processed

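Total RNA was isolated from liver with TRIzol and hybridized as biotinylated cRNA to 1 Affymetrix array per mouse. The deposited log2 levels per probe set were made by the authors with Affymetrix Power Tools. Array medians lay between 5.87 and 5.89, so the arrays had been normalized before deposit. How probe sets were summarised is not stated in the sources used. Mouse Gene 1.0 ST arrays are named in the labels, but the authors' deposited table names Mouse430A_2, to which its probe set identifiers belong. This table holds the authors' own folds and directions, which were not used. It served only to name 99 of its 110 probe sets (87 genes), with symbols updated through RefSeq.

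Of 22690 probe sets, 64 controls were set aside. Groups were compared by limma 3.58.1 (R 4.3.3; lmFit, eBayes, two-sided) with Benjamini-Hochberg adjustment over 22626 probe sets and no filter on dim ones. The script was tested on simulated data. The gap between the genes was tested by exact permutation (scipy 1.17.1). Where a gene had several probe sets, that of the highest mean was used. The deviations of a mouse are its log2 levels minus the mean of the vehicle mice. Beside Fdps and Idi1, the genes named were the paired members of the lists, up to 4 a list by unadjusted p, and the 5 named genes of nearest pattern, and outside that rule Cxcl1 and Lcn2. Titles number the mice and name no pairing. The members and gene lists were chosen with earlier results of these data known. The number of arrays limits the precision.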

Additional observations from a re-analysis of the deposited data

How the results depend on the processing

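The directions of Fdps and Idi1 held under all 13 alternatives run for each, and since the groups did not overlap only renormalization could have reversed them. With all 6 mice the adjusted p-values ran from 0.298 to 0.745 for Fdps and from 0.317 to 0.745 for Idi1. Leaving out 1 mouse gave -1.21 to -0.74 for Fdps and -0.98 to -0.58 for Idi1, and Fdps passed the adjusted threshold without GW4064 replicate 3 alone; fewer samples entered that test, and the cause was not tested. Over the whole array 0 probe sets passed the adjusted threshold with all 6 mice and 0 to 70 without 1 mouse. The looser threshold of 1.5-fold and unadjusted p under 0.05 was met by 283, by 97 in the methods' t-test, which takes each probe set's spread from its own 6 values, and by 158 (without GW4064 replicate 1) to 573 (without GW4064 replicate 3) when 1 mouse was left out. With the replicate block Fdps and Idi1 differed by the same -0.93 and -0.76, with adjusted p-values of 0.298 and 0.317 and 304 probe sets at the looser threshold, and no call changed. Deviations of same-numbered mice correlated at -0.00194, 0.0533 and -0.0337 over all probe sets, so no array-wide pairing was seen. The block lowered the SE from 0.23 to 0.13 for Fdps and from 0.20 to 0.13 for Idi1. A pairing that acts on fewer genes was not tested. The likeness ranks and their alternatives were chosen after seeing the data. The gap between the falls kept its sign, at -0.24 to -0.10 without 1 mouse. The mean over all probe sets of a gene could not be run as an alternative, since each gene has 1 probe set.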
